A study of Mus musculus with 6 samples.

Results

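The small nuclear RNAs (snRNAs) other than U1 were read out in short-RNA libraries of mouse duodenum. Members were the transcripts of the deposited table whose Ensembl identifier, version ignored, has the biotype snRNA in the mouse GENCODE annotation, without 8 U1 copies named beforehand. The rule found 157 members among 1929 transcripts. It used no measured value. Duodenum, the upper part of the small intestine, came from female mice of 2 genotypes, with 3 libraries each. Wild-type mice were C57Bl/6N. The other mice were C57BL/6N-Polr3b<em7(IMPC)Tcp>/Tcp, called Polr3b+/- here, which carry an insertion with a predicted frameshift in 1 allele of Polr3b in all tissues. Polr3b encodes a core subunit of RNA polymerase III (Pol III). All mice were fasted overnight, RNAs under 200 nucleotides were selected and demethylated in both genotypes, and age was not given in the labels.

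Most snRNAs act in the spliceosome, which removes introns from pre-mRNA. In the major spliceosome U1 pairs with the 5′ splice site, U2 with the branch point, U5 holds the exons together, and U6, delivered by U4, forms the catalytic centre with U2, while U11, U12, U4atac, U6atac and the shared U5 serve the rare introns of the minor spliceosome. U7 is not spliceosomal and directs the cutting of histone pre-mRNA at its 3′ end. U6 and U6atac are transcribed by Pol III, the enzyme whose subunit gene is heterozygous in the Polr3b+/- mice, and the others by RNA polymerase II (Pol II).

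The sequences below are those of the most abundant copies of 6 families, shown because the families, and the way copies share reads, follow from them. They come from the GENCODE reference transcripts with coordinates on GRCm38, are written as DNA 5′ to 3′, and have a short family motif in capitals. In Rnu2-10 (U2, chr11:101658238-101658428, + strand) the capitals mark the stretch that pairs with the branch point. In Gm25541 (U6atac, chr2:27539805-27539930, − strand) they mark the box that pairs with the 5′ splice site. In Rnu12 (U12, chr15:83149644-83149794, + strand), Rnu11 (U11, chr4:132270080-132270213, − strand), Gm22710 (U4atac, chr1:118459141-118459265, − strand) and Rnu7 (U7, chr6:124741225-124741286, − strand) they mark the binding site of the Sm or Sm-like protein ring.
Rnu2-10: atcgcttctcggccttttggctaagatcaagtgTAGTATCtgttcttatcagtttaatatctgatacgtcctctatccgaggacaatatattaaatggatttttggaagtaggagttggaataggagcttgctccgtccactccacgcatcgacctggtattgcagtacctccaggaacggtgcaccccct
Gm25541: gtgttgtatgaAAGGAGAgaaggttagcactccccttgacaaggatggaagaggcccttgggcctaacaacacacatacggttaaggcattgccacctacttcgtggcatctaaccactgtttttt
Rnu12: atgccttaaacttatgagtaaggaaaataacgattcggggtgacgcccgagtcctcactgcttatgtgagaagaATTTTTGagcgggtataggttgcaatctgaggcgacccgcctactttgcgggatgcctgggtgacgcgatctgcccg
Rnu11: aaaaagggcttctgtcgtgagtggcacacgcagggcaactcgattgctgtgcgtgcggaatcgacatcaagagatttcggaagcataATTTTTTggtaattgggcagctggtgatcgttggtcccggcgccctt
Gm22710: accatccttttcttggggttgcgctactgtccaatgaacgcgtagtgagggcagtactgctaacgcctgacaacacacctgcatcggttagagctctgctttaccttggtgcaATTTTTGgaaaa
Rnu7: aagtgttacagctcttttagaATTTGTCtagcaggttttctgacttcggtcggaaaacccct

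By sequence the 157 members fell into 80 U6, 17 U1-like, 14 U2, 8 U5, 4 U12 and 2 U11 transcripts, 1 each of U4atac, U6atac and U7, and 29 others that matched no family. The 17 U1-like transcripts are at least 80% identical to a named U1 gene over at least 80% of both lengths, so the set is not free of U1-related RNAs. No U4 family was found by the rule used, which asked for the motif GCAGTGG as well as an Sm site spelled ATTTTTG. The former stood in 9 of 157 members (5.7%) and the latter in 13 of 157 (8.3%), with no member holding both, and none of the 9 had more than 14 counts over all libraries. ACAGAGA was in 64 of 80 U6 members (80%) against 64 of 157 members (40.8%), TAGTATC in 12 of 14 U2 members (85.7%) against 12 of 157 (7.6%), and CTTTTAC in 8 of 8 U5 members against 9 of 157 (5.7%). The same motifs served to name sequence clusters that held no named gene. These shares are therefore partly set by the rule and are no independent check of the families. Motifs were searched on the transcript strand.

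Most members are rare or degenerate copies. Of the 157, 99 had fewer than 10 counts over the 6 libraries together, 25 had at least 100, and 26 had counts in every library. The 10 most abundant members held 96.5% of the members' counts. The sequence of Rnu6, the reference U6 gene, is shared by 43 annotated genes, but no member carries it exactly. Gm22363 and Gm23924 differ from it by 1 base, the median U6 member by 10 and the most distant by 35. The values of the 80 U6 members are therefore counts assigned to variant and pseudogene-like copies. Whether reads of U6 with the reference sequence were assigned to these copies was not tested. U6 with the reference sequence was itself not analysed here.

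Library totals ran from 1719869 to 9771623 estimated counts, and the DESeq2 size factors from 0.337 to 2.19. Hairpins of 9 of 9 microRNAs of intestinal epithelium were detected, at 5.23 to 37.3 CPM (counts scaled to the library total) in wild type against 9.25 to 15.9 in Polr3b+/- when summed, with 3 of 3 of pancreas at 0.269 to 2.33 and 0.113 to 0.819, 2 of 2 of smooth muscle at 1.35 to 5.15 and 2.27 to 8.60, and 3 of 5 of blood and immune cells at 1.08 to 4.17 and 0.325 to 3.38. The defining hairpin of liver had 1 count in all, and none of the 4 of striated muscle was in the table. Their part in the results below was not tested. In bulk tissue, fewer cells of a type and less RNA per cell cannot be told apart. In 6 of the 1929 transcripts the libraries also split in a way that cut across genotype. Wild-type replicate 1 and heterozygous libraries 1 and 2 had exactly 0 counts of 6 transcripts that had at least 50 in each of the other 3 libraries, and 2 of these 6 are members, Rnu11 and Gm22710. Any other way to choose 3 libraries gave at most 1 such transcript. These 2 library sets were drawn from the counts themselves, and no label names them. Each difference within a set below compares 1 library with 2 of the other genotype, so it is a description without replication.

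The members held 0.814%, 2.01% and 2.85% of the counts in the wild-type libraries and 1.06%, 1.68% and 0.844% in the Polr3b+/- libraries. The genotypes overlapped, with means of 1.89% ± 1.02 and 1.19% ± 0.431 (SD, n = 3 each). The difference of −0.55 on the log2 scale gave p = 0.5 in a two-sided exact permutation test, for which 3 against 3 libraries cannot go below 0.1. It was 0.71 among the set of wild-type replicate 1 with heterozygous libraries 1 and 2, and −1.50 among the other 3 libraries.

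**Figure D1:**
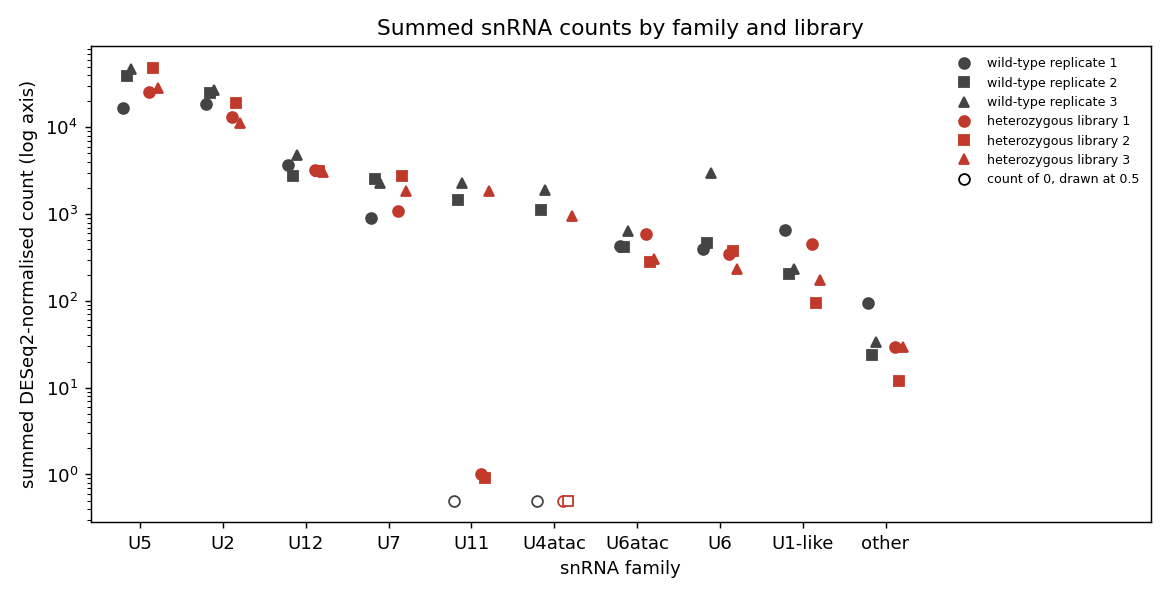
Summed DESeq2-normalised counts (log axis) of each snRNA family in every library. Grey points are wild type, red points Polr3b+/-, and open points are counts of 0 drawn at 0.5. U5 and U2 stand highest, and U11 and U4atac are near or at 0 in the same 3 libraries of mixed genotype.

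The major snRNAs U2 and U5 were the most abundant members. U2, which selects the branch point, came almost wholly from Rnu2-10. Its normalised counts were 16711, 22502 and 24061 in wild type against 12016, 17599 and 10011 in Polr3b+/-. The Polr3b+/- libraries lay lower in the mean, but heterozygous library 2 was above wild-type replicate 1. The log2 fold change was −0.68 with SE 0.46 (adjusted p = 1.0 in DESeq2), and the differences within the library sets were −0.20 and −1.22. Rnu2-10 had 88.3% to 92.1% of the U2 counts in each library, so the sum over all 14 U2 members had nearly the same values, with a log2 fold change of −0.68 (SE 0.45, adjusted p = 0.996 in DESeq2). The sequence of Rnu2-10 is shared by 4 annotated genes, which cannot be separated.

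U5, which is used by both spliceosomes, was divided among 4 copies of similar level. Rnu5g had 3618, 12527 and 12691 normalised counts in wild type against 7291, 15639 and 8395 in Polr3b+/-. The spread within each genotype was wider than the gap between them, and the log2 fold change was 0.12 with SE 0.74. The log2 fold changes of Gm23143 (0.28, SE 0.68), Gm24871 (−0.34, SE 0.48) and Gm25313 (0.00, SE 0.75) were likewise smaller than their errors. The library sets went opposite ways for 3 of these copies. Rnu5g differed by 1.56 on the log2 scale in the set with wild-type replicate 1 and by −0.59 in the other, Gm23143 by 1.44 and −0.57, and Gm25313 by 1.48 and −0.74, while Gm24871 differed by 0.10 and −0.42. Summed over its 8 members, U5 had a log2 fold change of 0.00 (SE 0.65, adjusted p = 0.998 in DESeq2).

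The U5 copies are alike in sequence. Compared with Rnu5g position by position without gaps, Gm25313 is 97.4% identical with 3 unlike bases and Gm24871 94.0% with 7. Gm23143 is 91.4% identical with 10 and Gm22265, the fifth copy by level, 83.6% with 19. With gaps allowed, the differences from Rnu5g were 3 for Gm25313, 6 for Gm24871, 10 for Gm23143 and 10 for Gm22265.

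**Figure D2:**
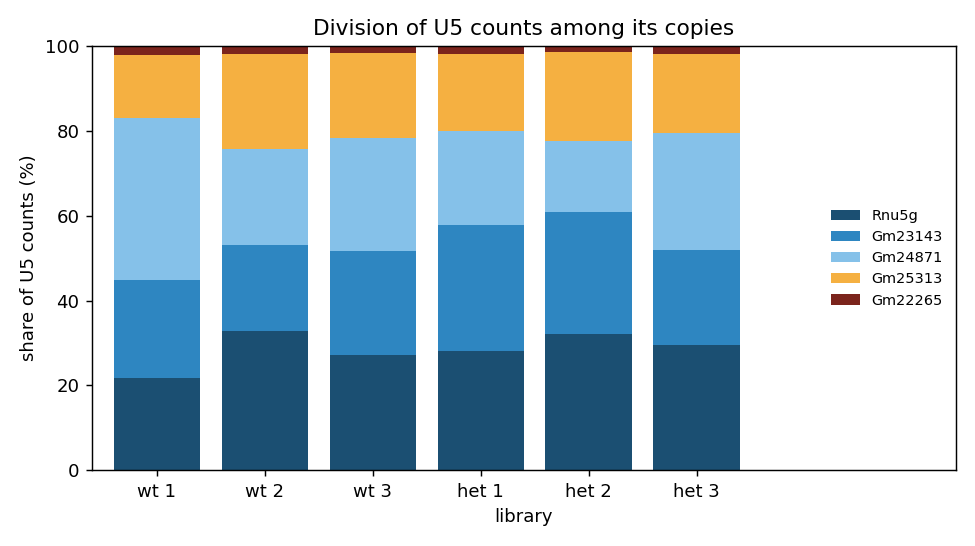
Share of the U5 counts (%) held by each of the 5 most abundant copies in every library. Rnu5g holds 21.7% to 32.8% and Gm22265 the least of these 5, 1.38% to 2.14%.

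The division of U5 among its copies varied as much within a genotype as between them. Rnu5g held 27.2% ± 5.53 of the U5 counts in wild type against 29.9% ± 1.96 in Polr3b+/- (SD, n = 3 each). Gm24871 held 38.2%, 22.7% and 26.6% in wild type against 22.2%, 16.7% and 27.4% in Polr3b+/-, and wild-type replicate 1 had the highest value. Gm23143 held 22.7% ± 2.21 and 27.0% ± 3.95, and Gm25313 19.0% ± 3.72 and 19.3% ± 1.54. These shares are a description, since the estimation divides shared reads by a model.

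A scale of CPM per 100 bases corrects for length only. Whether reads per molecule follow length in these size-selected libraries was not tested. On it Rnu2-10 stood at 3029 ± 1202 in wild type against 1488 ± 576 in Polr3b+/- (SD, n = 3 each). Rnu5g stood at 2391 ± 1562 and 1923 ± 961. Next came Gm24871, Gm23143 and Gm25313 at 2212, 1912 and 1687 in wild type, then Rnu7 at 871 ± 507 and Rnu12 at 664 ± 305. Neighbours in the order of these 7 did not differ beyond their spread. Before division by length Rnu12 stood above Rnu7, with mean normalised counts of 3704 and 1900 in wild type. The most abundant U6atac transcript, Gm25541, had 107 ± 48.3, and Gm22363, a U6 copy with 1 base unlike the reference, 49.0 ± 27.2.

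**Figure D3:**
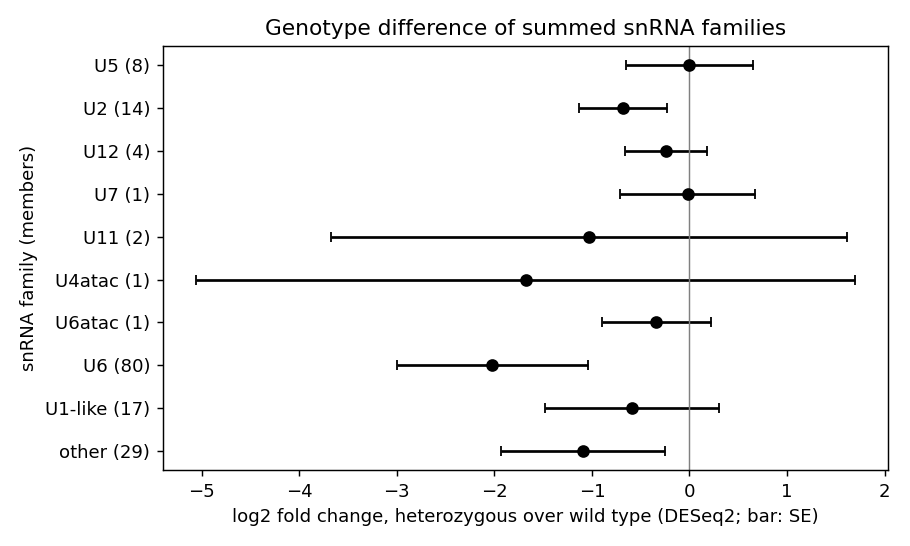
Log2 fold change of each summed family in Polr3b+/- over wild type from DESeq2, with bars for 1 SE. None of the 10 families passed the threshold, and the bars are longest for U11 and U4atac.

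None of the 10 family sums passed an adjusted p of 0.1 in DESeq2, in a table where 1.21% of the transcripts tested did, and none did in edgeR. U6 was the family with an unadjusted p under 0.05. Its log2 fold change was −2.02 (SE 0.98, adjusted p = 0.996 in DESeq2), and 2.74% of all transcripts in that fit had such a p, while in edgeR the unadjusted p of U6 was above 0.05. This difference rested on Gm23057 in a single library. Gm23057 had 2, 0 and 2927 counts in wild type against 0 in each Polr3b+/- library, and DESeq2 gave it no p because of its outlying count. Against a floor of 3 counts over the 3 Polr3b+/- libraries its wild-type mean was at least 1309-fold higher, but without wild-type replicate 3 only 2 counts remained. Gm24018, which differs from Gm23057 by 2 bases, had 43, 10 and 82 counts in wild type against 74, 75 and 0 in Polr3b+/-.

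Without Gm23057, the other U6 members together had 391.8, 457 and 536 normalised counts in wild type against 351, 377 and 232 in Polr3b+/-. This sum was added after the values of Gm23057 had been seen. All 3 Polr3b+/- libraries lay below the wild-type libraries, with means of 320 ± 77.1 against 462 ± 72.3 (SD, n = 3 each). Of all single transcripts with a mean of at least 10 normalised counts, 5.55% were lower without overlap. The log2 fold change of the sum was −0.54 with SE 0.44 (adjusted p = 0.996 in DESeq2). Gm22363 had 104, 217 and 240 normalised counts in wild type against 132, 159 and 100 in Polr3b+/-. These overlapped, with a log2 fold change of −0.52 (SE 0.56). Gm25930, another U6 copy, had a mean of 35.8 ± 15.9 in wild type against 35.4 ± 13.1 in Polr3b+/-.

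U6atac, the other Pol III snRNA, was represented by Gm25541 alone. Its normalised counts were 433, 416 and 627 in wild type against 596, 277 and 307 in Polr3b+/-. Heterozygous library 1 lay within the wild-type range and the others below it, and the log2 fold change was −0.32 with SE 0.56 (adjusted p = 1.0 in DESeq2). Because Pol III transcribes U6 and U6atac and Pol II the other families, the summed U6 and U6atac count was also divided by the summed count of U2, U5, U7, U11, U12 and U4atac within each library. The ratio was 0.0208, 0.0124 and 0.0427 in wild type against 0.0217, 0.00885 and 0.0113 in Polr3b+/-. The groups overlapped, and the difference of −0.78 on the log2 scale gave p = 0.3 in a two-sided exact permutation test. Without Gm23057 it was −0.23 (exact permutation p = 0.6). With the 8 U1 copies, which are Pol II transcripts, added to the denominator and Gm23057 kept, it was −1.06 and the genotypes did not overlap (exact permutation p = 0.1, the smallest possible). That ratio was 0.00375, 0.00379 and 0.0134 in wild type against 0.00353, 0.00242 and 0.00247 in Polr3b+/-, so wild-type replicate 3, the library with the counts of Gm23057, stood apart and the other wild-type values were close to heterozygous library 1.

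The minor spliceosomal snRNAs fell into those that were even across libraries and those that were not. Rnu12, the U12 gene, had 3660, 2701 and 4751 normalised counts in wild type against 3280, 3134 and 3068 in Polr3b+/-. The Polr3b+/- values lay inside the wild-type range, and the log2 fold change was −0.23 with SE 0.42. Rnu11, the partner of U12 in recognising minor introns, had 0, 1459 and 2266 in wild type against 0, 0 and 1856 in Polr3b+/-. Gm22710, the U4atac transcript, had 0, 1118 and 1866 in wild type against 0, 0 and 945 in Polr3b+/-. Both were at 0 in the same 3 libraries. These 3 are 1 wild-type and 2 Polr3b+/- libraries, and the log2 fold changes were −1.01 (SE 3.50) and −1.66 (SE 3.41). Among the 3 libraries with counts, heterozygous library 3 differed from wild-type replicates 2 and 3 by 0.03 for Rnu11 and −0.61 for Gm22710 on the log2 scale.

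The ratio of minor (U11, U12, U4atac, U6atac) to major (U2, U5, U6) snRNAs was 0.114, 0.0901 and 0.125 in wild type against 0.0978, 0.0499 and 0.154 in Polr3b+/-. The Polr3b+/- libraries held both the lowest and the highest value, and the log2 difference of −0.26 gave p = 0.8 in a two-sided exact permutation test. With U12 and U6atac alone as the minor snRNAs it was 0.02 (exact permutation p = 0.9). Rnu7, the histone-processing snRNA, had 905, 2507 and 2289 normalised counts in wild type against 1105, 2751 and 1854 in Polr3b+/-, with a log2 fold change of 0.00 (SE 0.69) and differences of 0.94 and −0.37 within the library sets.

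**Figure D4:**
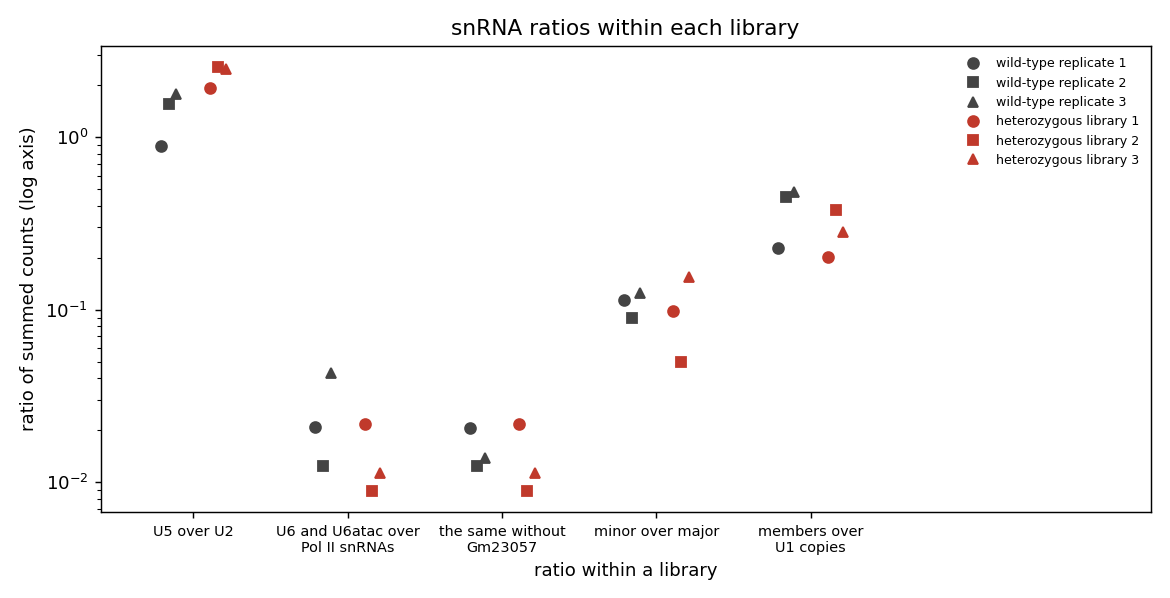
Ratios of summed counts within each library (log axis), grey for wild type and red for Polr3b+/-. In U5 over U2 the 3 Polr3b+/- libraries lie above the wild-type libraries, and in the other 4 ratios the genotypes overlap.

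Among the 8 U1 copies taken as a group and the 7 member families with counts in every library there are 28 pairwise ratios, of which 3 did not overlap between genotypes. This is 10.7% of the pairs, against 9.14% of all pairs of abundant transcripts in the table. The ratio of U5 to U2 was 0.889, 1.56 and 1.78 in wild type against 1.93, 2.56 and 2.51 in Polr3b+/-. All Polr3b+/- libraries lay above all wild-type libraries, by 0.78 on the log2 scale (exact permutation p = 0.1, the smallest possible, and 0.8 after Benjamini-Hochberg adjustment over the 28 ratios). This ratio was singled out after its values were seen. It was 1.32 higher in Polr3b+/- within the set of wild-type replicate 1 and 0.59 higher in the other set. The ratio of the U1 copies to U2 was 0.85 higher and that of the U1 copies to U6 1.55 higher on the log2 scale, each with an exact permutation p of 0.1 (adjusted 0.8), and Gm23057 is counted in the latter. The ratio of all members to the 8 U1 copies was 0.229, 0.450 and 0.480 in wild type against 0.201, 0.380 and 0.282 in Polr3b+/-, which overlapped (log2 difference −0.40, exact permutation p = 0.4).

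Among single members, DESeq2 gave an adjusted p to 43 of the 157 and called 1 at 0.1, against 2.32% of all transcripts tested (1.36% lower in Polr3b+/-). An unadjusted p was given to 154 members, of which 3 were under 0.05 (Gm26264, Gm25813 and Gm26108), against 2.75% of all. edgeR tested 24 members and called 0, as it did among all 577 transcripts it tested, and 2 members (Gm25813 and Gm26264) had an unadjusted p under 0.05, against 3.29% of all. Of the 27 members with a mean of at least 10 normalised counts, 4 had genotypes that did not overlap, all lower in Polr3b+/- (14.8%, against 5.55% of all such transcripts), and 0 were higher (3.92% of all). These 4 include 2 U2 copies close in sequence to Rnu2-10. The median log2 fold change of the 27 was −0.34 and 22 of them were below 0, while the median of all 613 such transcripts was 0.00.

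**Figure D5:**
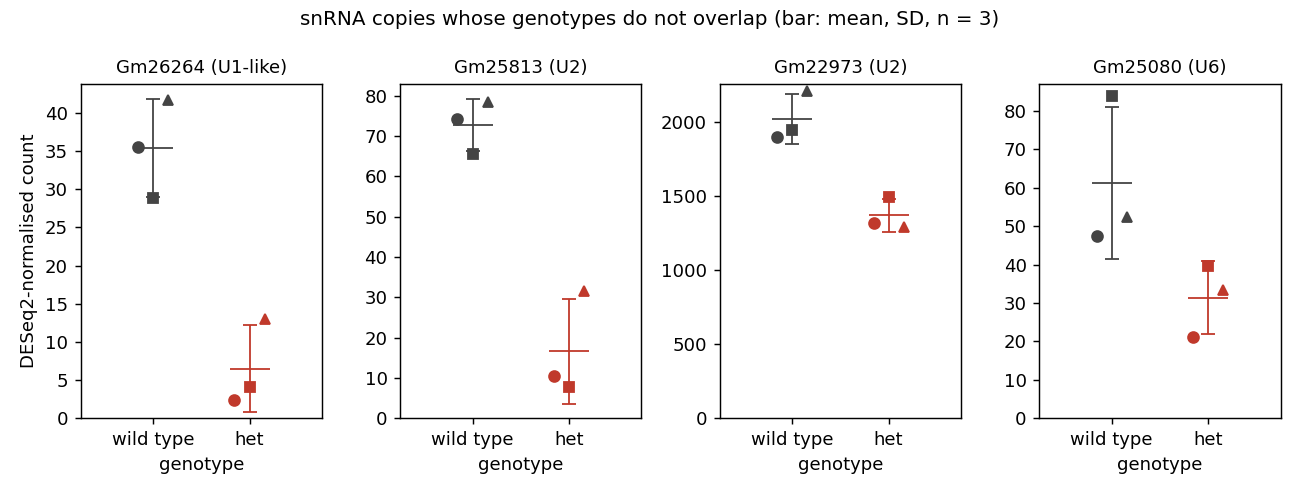
DESeq2-normalised counts of the 4 members whose genotypes do not overlap, with mean and SD (n = 3 each). Each panel has its own axis from 0, and in each all Polr3b+/- points lie below all wild-type points.

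The member called was Gm26264, a U1-like copy on chr6:81638311-81638469 (+ strand). It had 35.6, 28.9 and 41.7 normalised counts in wild type against 2.4, 4.1 and 13.0 in Polr3b+/-. The genotypes did not overlap, with means of 35.4 ± 6.4 and 6.5 ± 5.7 (SD, n = 3 each), from no more than 50 counts in any library. Its log2 fold change was −2.63 with SE 0.85 (adjusted p = 0.0913 in DESeq2). Within the library sets the log2 differences were −3.14 and −1.35. The call was lost in edgeR (adjusted p = 1.0), with TMM factors (adjusted p = 0.127 in DESeq2) and on leaving out any library other than heterozygous library 3, and its adjusted p ran from 0.000987 to 1.0 over all alternatives. Gm26264 is shown against Gm23804, the U1 copy that held most U1 counts, with the bases unlike it in capitals. It has 9 unlike bases and lacks 5 others.
Gm26264: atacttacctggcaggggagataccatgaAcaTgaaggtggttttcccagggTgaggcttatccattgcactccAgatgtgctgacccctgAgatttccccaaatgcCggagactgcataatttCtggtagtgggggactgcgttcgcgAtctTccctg

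The sum of all 17 U1-like members had 659, 203 and 233 normalised counts in wild type against 454, 94.4 and 176 in Polr3b+/-, a log2 fold change of −0.59 with SE 0.89. The highest values of both genotypes lay in wild-type replicate 1 and heterozygous library 1. Gm25682, another U1-like copy, had 166, 106 and 101 in wild type against 44.6, 60.6 and 121 in Polr3b+/-. Gm25587, the most abundant in the mean, had 220, 24.5 and 30.0 in wild type against 320, 21.0 and 24.1 in Polr3b+/-, and Gm23680 had 137, 7.9 and 8.3 against 11.5, 0 and 1.9. In both genotypes a single library set the mean of Gm25587, to which DESeq2 gave no p for that reason. Gm22739 had a mean of 22.2 ± 8.1 in wild type against 17.1 ± 21.0 in Polr3b+/-.

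Both U2 copies without overlap are close relatives of Rnu2-10. Gm25813 (chr8:52336915-52337105, − strand) differs from it by 2 bases. It had 74.2, 65.6 and 78.4 normalised counts in wild type against 10.6, 7.7 and 31.6 in Polr3b+/-, and the highest Polr3b+/- library had less than any wild-type library. The means were 72.7 ± 6.5 and 16.6 ± 13.0 (SD, n = 3 each), with a log2 fold change of −2.22 (SE 0.75, adjusted p = 0.114 in DESeq2). It held 0.27% to 0.40% of the U2 counts in wild type against 0.04% to 0.28% in Polr3b+/-. Summed with Rnu2-10 and other near-identical copies it had a log2 fold change of −0.68 (adjusted p = 0.998 in DESeq2). Gm22973 (chr12:59040335-59040525, + strand), with 9 differences, had 1900, 1946 and 2211 in wild type against 1321, 1496 and 1291 in Polr3b+/-. Its means of 2019 ± 168 and 1369 ± 111 lay further apart than the spread within either genotype, with a log2 fold change of −0.56 (SE 0.31, adjusted p = 0.799 in DESeq2). Both copies are shown with the bases unlike or extra to Rnu2-10 in capitals, since reads that miss the differences fit either gene. The 9 differences of Gm22973 are 7 unlike bases, 1 extra and 1 missing, and the missing base cannot be shown.
Gm25813: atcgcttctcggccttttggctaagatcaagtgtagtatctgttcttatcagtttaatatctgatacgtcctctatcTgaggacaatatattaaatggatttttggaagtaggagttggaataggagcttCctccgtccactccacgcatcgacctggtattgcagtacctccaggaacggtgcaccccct
Gm22973: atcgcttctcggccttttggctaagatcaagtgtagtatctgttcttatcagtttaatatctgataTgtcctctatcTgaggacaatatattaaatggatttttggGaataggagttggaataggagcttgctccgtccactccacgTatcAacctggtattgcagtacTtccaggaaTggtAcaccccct

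Gm25080, the U6 copy among the 4, differs from Rnu6 by 3 bases. It had 47.5, 84.0 and 52.5 normalised counts in wild type against 21.1, 39.7 and 33.4 in Polr3b+/-. Its log2 fold change was −0.98 with SE 0.58 (adjusted p = 0.892 in DESeq2), and it was −0.69 and −0.97 within the library sets. Near-identical copies were joined in chains, and the chain of Gm25080 takes in Gm23057, from which it has 8 differences. The sum over that chain had −2.39 and includes the single-library count of Gm23057. Gm26108, a U2 copy with 19 differences from Rnu2-10, had 1, 7 and 3 counts in wild type against 0, 1 and 0 in Polr3b+/-, too few for an adjusted p in DESeq2. Gm26442, the most abundant of the 29 others, had 11.9, 9.6 and 12.5 normalised counts in wild type against 0, 0 and 7.4 in Polr3b+/- (adjusted p = 1.0 in DESeq2). Gm25106 and Gm25202, both U2 copies, each had no more than 46.1 normalised counts in any library.

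Genes tied to the snRNAs by function or by type of promoter were read from the same DESeq2 fit. Of 15 small Cajal body RNAs, which guide the chemical modification of snRNAs, 13 had an adjusted p and 0 were called, with a median log2 fold change of −0.15 among those with a mean of at least 10. Of the 8 U1 copies, 5 had an adjusted p and 0 were called, with a median of −0.11 over the 7 with such a mean. That median rests mostly on rare copies. Gm23804, with at least 60983 counts in each library, had a log2 fold change of 0.17 (SE 0.33). Each other U1 copy had no more than 418 counts in any library. Of 5 RNAs with a U6-type Pol III promoter 3 were in the table, none was called, and their log2 fold changes were 0.04 for Rmrp, the RNA of RNase MRP, 0.17 for Rny1 and 0.06 for Rny3, both Y RNAs.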

How the data were processed

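The authors trimmed reads with Cutadapt, quantified transcripts with Salmon on a GRCm39 index that held every RNA class and genomic decoys, and kept the short sequences. The values the authors deposited are expected counts given as whole numbers, neither scaled nor pooled. Salmon divides reads between similar copies by a model. Wild-type columns were matched to samples by name. The other 3 columns bear the name of another Pol III subunit, were assigned to the heterozygous group as the only other group, and are numbered in column order. Replicates are separate mice as far as the labels show.

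Of 1742 Ensembl identifiers, 1356 matched GENCODE vM21 (GRCm38) and 386 did not. No member had the same version in both. Coordinates and sequences are from that annotation and may differ from the authors' index. Some sequences are not reported here. Families were set by gene name or 80% identity or more over 80% or more of each length (BLAST 2.17.0), or by a motif. U4atac and U6atac were named from short motifs chosen after the sequences had been read. The members, lists and tests were chosen with earlier results of these data known.

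Counts were tested over all 1929 transcripts with the DESeq2 1.42.0 Wald test at a false discovery rate of 10% (R 4.3.3), the study's own choice, and with edgeR 4.0.16 (quasi-likelihood, TMM factors) as the alternative. Library ratios were compared by exact permutation tests over 20 assignments (scipy 1.17.1). Counts were also simulated over 1929 transcripts, with changes placed only in transcripts with a mean of at least 10 counts. Every simulated transcript had the same dispersion, which was not compared with that of the data. Library sets and single-library outliers were not simulated. DESeq2 recovered 98% of 4-fold and 100% of 8-fold changes at a dispersion of 0.1, and 46% and 76% at 0.5. Of all its calls 8.3% were false at either dispersion. These rates do not cover the 130 members with a normalised mean under 10. Other size factors, filters, family rules and the removal of each library were tried. Named members were the most abundant of each family and up to 3 further copies, those called or with p under 0.05, and those whose genotypes did not overlap. Floors cover counting error only.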

Additional observations from a re-analysis of the deposited data

How the results depend on the processing

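The number of members called, 1 in DESeq2, was 0 with TMM factors, at an adjusted p of 0.05, with at least 10 counts required in 3 libraries, and in edgeR. It was 2 with library totals, without Cook's filtering and with size factors from positive counts, and 4 with the library set as a term, an alternative added after the data had been seen. Those 4 were Gm23057, Gm22249, Gm24204 and Gm24695, and not Gm26264. Each of the 4 rested on a single library. Gm22249, Gm24204 and Gm24695 each had 2 counts in wild-type replicate 1 and 0 in every other library. Gm23057 had 2927 counts in wild-type replicate 3 and no more than 2 in any other. The number called was 1 with near-identical copies summed and with size factors set without the members. Leaving out 1 library gave 0 to 5 calls. There were 0 without heterozygous library 1 or 2 or wild-type replicate 3, and 5 without heterozygous library 3, namely Gm26264, Gm25813, Gm26442, Rnu11 and Gm22710. The 1 call without wild-type replicate 1 or 2 was Gm23057. The count of family sums called was 0 to 2 on leaving out a library, with U11 and U4atac called without heterozygous library 3 and U6 without wild-type replicate 1 (DESeq2 adjusted p = 0.0885). It was 0 in the other alternatives.

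The ratio of minor to major snRNAs changed sign with U12 and U6atac alone (0.02, log2), and ranged from −0.64 to 0.18 without 1 library, positive without heterozygous library 2. Other log2 differences that changed sign were small or rested on 1 library. With library totals, which shift the median of all transcripts to −0.36, Gm23143 was at −0.13 and Rnu5g at −0.31. With the library set as a term, Gm25106 was at −0.41, Gm25587 at −0.27, the U11 sum at 0.09 and the U7 sum at 0.35. The U7 sum was at 0.09 with TMM factors and 0.03 with positive counts. Without 1 library, Gm23143 ranged from −0.13 to 0.72, Rnu5g from −0.30 to 0.39, Rnu12 from −0.39 to 0.02, Gm25106 from −2.84 to 3.24, Gm25587 from −2.01 to 2.18, the U1-like sum from −1.44 to 0.17 and the U7 sum from −0.38 to 0.26. The cause was not tested. The ratio of U5 to U2 stayed higher in Polr3b+/- without any 1 library (0.48 to 0.97), and the share of members stayed lower (−1.06 to −0.16), as did the ratio of U6 and U6atac to the Pol II snRNAs (−1.20 to −0.31) and of members to U1 copies (−0.74 to −0.16). Of the 157 members, 99 had fewer than 10 counts in all libraries together, and 114 received no adjusted p, 3 of them after Cook's filtering. No paired analysis was made, since the labels give no pairing of mice and the heterozygous columns carry no sample numbers.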
